A study of Mus musculus with 36 samples.

Results

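The tissue kallikreins of the epidermis are secreted serine proteases, and 8 of their genes (Klk5, Klk6, Klk7, Klk8, Klk10, Klk11, Klk13 and Klk14) were followed here together with Spink5, the gene of their inhibitor LEKTI, and St14, the gene of the membrane protease matriptase. These 10 genes were taken by name from the 55358 genes of the deposited count table, and all 10 passed the filter on low counts that left 15114 genes for testing. The 36 libraries were made from poly(A) RNA of murine keratinocytes of 3 kinds. WT cells came from newborn Pkp4+/+ pups. PKP4-KO cells came from newborn Pkp4-/- pups, whose allele lacks exon 9 of the gene of plakophilin 4, a protein of cell-cell junctions. Rescue cells were PKP4-KO cells that carried human PKP4 with GFP at its N terminus from a lentiviral vector and had been selected with puromycin as a stable line, so that virus and selection also set them apart from both other kinds. PKP4-KO cells with the vector alone were not analysed here. The culture time was 24 h or 72 h, and the medium was low in calcium (LCM) or high in calcium (HCM), the latter being LCM with added calcium chloride, which lets keratinocytes differentiate. This gave 12 groups of 3 libraries. The library titles hold LD in the groups of 24 h and HD in those of 72 h, and give no hours. Any other difference that LD and HD may mark cannot be told apart from culture time.

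Kallikreins are made by differentiating keratinocytes as inactive precursors and are secreted into the upper layers of the epidermis. KLK5 activates itself and other kallikreins, and matriptase can activate kallikrein precursors. Between them, KLK5, KLK7 and KLK14 cleave desmoglein 1, desmocollin 1 and corneodesmosin, which hold the cells of the stratum corneum together. LEKTI blocks several of these proteases, and loss of its gene causes Netherton syndrome, in which the skin barrier peels off. KLK5 and KLK14 can also activate the receptor PAR2, which F2rl1 encodes. In the GRCm39 build of the mouse genome, Spink5 has 32 exons on the forward strand of chromosome 18 (44096302 to 44155568), and St14 has 19 exons on the reverse strand of chromosome 9 (31000698 to 31043218).

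The 8 kallikrein genes lie on the forward strand of chromosome 7 in GRCm39, between 43339842 and 43500605, a stretch of 160.8 kb. In the order of the strand they are Klk14 (43339842 to 43344960), Klk13 (43361812 to 43377295), Klk11 (43424015 to 43428690), Klk10 (43430448 to 43436793), Klk8 (43446969 to 43453250), Klk7 (43460718 to 43465809), Klk6 (43473869 to 43481516) and Klk5 (43491395 to 43500605). Klk12 lies between Klk13 and Klk11, and Klk9 between Klk10 and Klk8. Their canonical transcripts have 5 exons in Klk5, Klk8, Klk11 and Klk14, 6 in Klk7, Klk10 and Klk13 and 7 in Klk6. The antisense gene 2310002F09Rik, which had 6 to 97 counts per library, shares 29.1% of the exon bases of Klk8, 22.6% of those of Klk14 and 9.8% of those of Klk11. The libraries were strand-specific, and whether the strand was used in counting is not given in the sources used here. No member shares an exact stretch of 50 bases with another kallikrein, while 29.8% of the Klk14 transcript recurs in such stretches in transcripts of 296 other genes, so that its reads may be split or lost in counting.

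Members of this cluster that lie next to each other behaved differently in the comparisons described further on, so the bases just before the transcription start of 5 of them are shown, from the reference genome of GRCm39, forward strand, 5′ to 3′. Each stretch ends 1 base before the start of the canonical transcript and holds no exon of any annotated transcript. It has 250 bases for Klk7 (chr7:43460468-43460717), Klk11 (chr7:43425503-43425752), Klk13 (chr7:43361562-43361811) and Klk14 (chr7:43339592-43339841) and 198 bases for Klk5 (chr7:43491492-43491689). The stretches of Klk5 and Klk11 lie inside the annotated genes, which begin before them, at 43491395 and 43424015. These stretches are thus upstream of the canonical transcript and not of the whole gene. Capitals mark matches on either strand to CACCC, the core of sites of the KLF family, or to TTGCNNAA, a form of C/EBP sites.
Klk5: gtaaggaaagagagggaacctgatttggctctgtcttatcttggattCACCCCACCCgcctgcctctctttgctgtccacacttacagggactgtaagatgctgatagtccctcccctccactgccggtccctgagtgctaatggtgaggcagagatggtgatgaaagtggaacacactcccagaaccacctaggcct
Klk7: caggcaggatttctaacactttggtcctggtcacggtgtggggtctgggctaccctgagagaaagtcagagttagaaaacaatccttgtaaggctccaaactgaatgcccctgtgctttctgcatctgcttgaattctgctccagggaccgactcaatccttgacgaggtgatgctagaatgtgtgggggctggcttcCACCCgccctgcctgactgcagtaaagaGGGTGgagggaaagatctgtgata
Klk11: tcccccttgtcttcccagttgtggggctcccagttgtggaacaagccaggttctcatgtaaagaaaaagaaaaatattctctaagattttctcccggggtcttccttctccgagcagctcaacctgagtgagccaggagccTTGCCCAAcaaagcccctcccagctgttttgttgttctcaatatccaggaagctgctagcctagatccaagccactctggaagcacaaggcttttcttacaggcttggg
Klk13: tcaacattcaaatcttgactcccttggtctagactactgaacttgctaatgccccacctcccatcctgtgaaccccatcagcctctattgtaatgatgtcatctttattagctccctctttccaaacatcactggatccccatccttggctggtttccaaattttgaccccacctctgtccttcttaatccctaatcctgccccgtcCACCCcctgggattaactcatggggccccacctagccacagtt
Klk14: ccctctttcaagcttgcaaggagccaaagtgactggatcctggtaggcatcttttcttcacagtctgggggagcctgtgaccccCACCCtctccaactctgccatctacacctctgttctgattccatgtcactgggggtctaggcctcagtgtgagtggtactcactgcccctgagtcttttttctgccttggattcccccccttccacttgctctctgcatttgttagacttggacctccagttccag

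CACCC or its reverse complement was found in the 250 bases before the start of Klk5, where a pair of copies abut at -151 and -146, of Klk7 (-52 and -24), Klk13 (-43) and Klk14 (-166), and also of Klk6, Klk10 and St14. It was also present in 52.9% of the 21757 promoters of the same length in the genome. TTGCNNAA was present at -109 in Klk11 and in 9.34% of all promoters. TATAAA (11.9% of all promoters) and TGANTCA, the AP-1 site (6.18%), were not found in this window of any of the 9 members looked at, which leave out Spink5. These matches describe the letters and not binding.

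The total count per library lay between 13602728 and 22467187. Levels are given as CPM, the count of a gene relative to the library total, scaled with the TMM factors of edgeR, which were 0.705 to 1.39 in 11 groups and lower, at 0.481 to 0.546, in PKP4-KO at 72 h HCM. Pkp4 itself was at 33.4 to 76.3 CPM in WT, 6.40 to 14.1 CPM in PKP4-KO and 6.52 to 11.9 CPM in Rescue, and the GFP_PKP4 sequence was at 124 to 562 CPM in Rescue and at most 8.27 CPM in the others. The Pkp4 values are of the mouse gene and do not measure the human PKP4 that Rescue cells carry. The labelled cell type was met by its markers: the 10 keratinocyte markers (Krt5, Krt14 and others) summed to 37000 to 79200 CPM in 11 groups and to 27800 to 28300 CPM in Rescue at 72 h HCM, while fibroblast, melanocyte, immune and endothelial markers summed to at most 11.5 CPM. The summed level of 6 simple epithelium markers (Krt7, Krt8, Krt18 and others) was 4.27 to 28.9 CPM in WT and PKP4-KO and 94.2 to 382 CPM in Rescue. The 12 markers of differentiated keratinocytes summed to 4410 to 11400 CPM in WT, 24300 to 26300 CPM in PKP4-KO and 3630 to 4110 CPM in Rescue at 72 h HCM, and to 1740 to 2260, 3740 to 7480 and 3190 to 6870 CPM at 72 h LCM. At 24 h they summed to 1600 to 4430, 963 to 2620 and 2290 to 2530 CPM in HCM and to 787 to 1110, 675 to 2250 and 1200 to 2070 CPM in LCM. The part of these marker shifts in the results below was not tested, and in bulk RNA a smaller number of differentiated cells and less RNA per cell cannot be told apart.

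Klk10 had the highest level of these genes, and the levels of all 10 genes changed widely over the 12 groups. Per kb of exon, the highest group mean was 1740 CPM for Klk10, 415 for Klk8, 201 for Klk7, 125 for Klk6, 123 for Klk13, 107 for Klk5, 100 for Spink5, 53.5 for Klk14, 27.3 for St14 and 16.7 for Klk11. These levels use the deposited gene lengths, which are 1373 bases for Klk10 and 7637 for St14, while their canonical transcripts have 3332 and 3328, and the levels of both per kb depend on that choice. The mean CPM of the highest group was 433 times that of the lowest for Klk6, 411 times for Klk5, 184 times for Klk14, 98.2 times for Klk7 and 72.3 times for Klk13, but 30.8 times for Klk8, 13.6 times for Klk10, 11.9 times for Spink5 and 3.96 times for St14. Klk11 is left out of these ratios because its lowest group, WT at 24 h LCM, had no library above 2 counts. The top group differed from gene to gene. PKP4-KO at 72 h HCM was the highest group for Klk5 (143 ± 12.3 CPM, SD, n = 3), Klk11 (24.5 ± 6.05) and Klk13 (282 ± 38.9), with no library of another group as high. For Klk11 this gap closed without TMM factors (9.73 to 15.5 CPM, against 8.68 to 10.6 CPM in Rescue at 72 h HCM). Rescue at 72 h HCM was the highest for Klk6 (189 ± 27.2) and Klk8 (640 ± 76.4). WT at 72 h HCM was the highest for Klk7 (381 ± 92.0), Klk10 (2390 ± 461) and Klk14 (67.9 ± 4.47), overlapping the next group in each, which was Rescue at 72 h HCM for Klk7 and PKP4-KO at 72 h HCM for the others. For Klk7 and Klk10 the highest group without TMM factors was Rescue at 72 h HCM (433 and 2290 CPM, against 326 and 2060 CPM in WT). Spink5 and St14 had their maximum earlier, in WT at 24 h HCM (479 ± 172 and 209 ± 23.4). In the order of the 12 levels, neighbouring groups overlapped in 11 of 11 steps for Spink5, 9 for Klk11, 8 each for Klk5, Klk6 and Klk8, 7 each for Klk7, Klk10 and St14, 6 for Klk14 and 5 for Klk13.

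**Figure D1:**
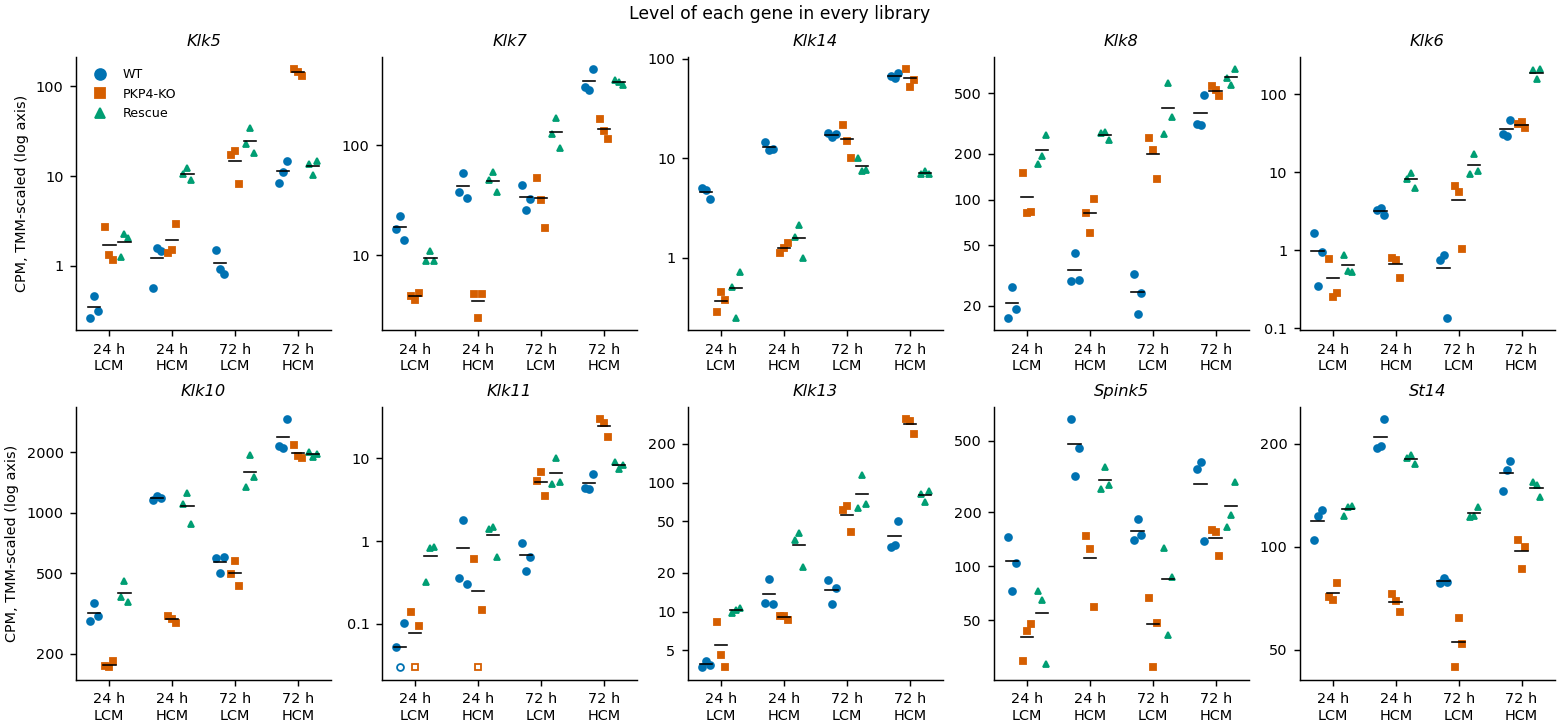
CPM scaled with TMM factors on a log axis for each gene, with 1 point per library, a black line at the mean of 3 libraries, and open points at the bottom for a count of 0. Klk5, Klk11 and Klk13 reach their highest level in PKP4-KO at 72 h HCM, Klk14 stays low in Rescue, and Spink5 and St14 are lowest in PKP4-KO.

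The first question was how these genes differed between PKP4-KO and WT cells. Klk5, Klk8, Klk11 and Klk13 rose in PKP4-KO in 2 or 3 of the 4 conditions, Klk7, Klk10, Klk14, Spink5 and St14 fell in 2 to 4 of them, and Klk6 fell at 24 h HCM and rose at 72 h LCM. With the adjusted p-value of edgeR's quasi-likelihood test below 0.05 as the threshold (called), 7 of 10 were called after 24 h in LCM, of which 2 rose and 5 fell, and 7 after 24 h in HCM, of which 1 rose and 6 fell. After 72 h, 7 were called in LCM (5 up and 2 down) and 6 in HCM (3 up and 3 down, and 3 up and 5 down without TMM factors). Of all 15114 tested genes, 40.2%, 42.8%, 45.1% and 51.8% were called in these comparisons, 19.7%, 20.7%, 21.3% and 21.9% as higher and 20.6%, 22.2%, 23.8% and 29.9% as lower, and the share of the members called at 72 h HCM was near that background. The median log2 fold change of the members was -0.86 and -1.80 at 24 h in LCM (without Klk11) and HCM and 0.96 and 0.06 at 72 h in LCM and HCM, with medians over all genes of 0.00, 0.00, 0.02 and -0.07. Without TMM factors the median over all genes was -0.23, 0.06, -0.35 and -0.83, and the fold changes given here are relative to that shift. The 6 members called at 72 h HCM were called without TMM factors too. Their log2 values were then 2.92 (Klk5), 2.14 (Klk13), 1.56 (Klk11), -2.17 (Klk7), -1.86 (Spink5) and -1.51 (St14).

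Klk5, the protease at the head of the activation cascade, rose most at 72 h. At 72 h HCM it was at 8.44, 11 and 14.7 CPM in WT and at 154, 146 and 130 CPM in PKP4-KO. At 72 h LCM the values were 1.5, 0.911 and 0.819 CPM in WT and 17.3, 18.8 and 8.10 CPM in PKP4-KO. No WT library came near a PKP4-KO library at either medium. The fold was 12.7 at 72 h HCM (log2 3.66 ± 0.36, SE, adjusted p = 2.01e-09) and 13.6 at 72 h LCM (3.77 ± 0.39, adjusted p = 5.98e-09). At 24 h LCM Klk5 was low in both, at 0.264, 0.467 and 0.312 CPM in WT and 2.68, 1.31 and 1.17 CPM in PKP4-KO, and still rose 4.78-fold (adjusted p = 0.000496). In HCM at 24 h the libraries overlapped, with a log2 difference of 0.67 ± 0.41 (adjusted p = 0.199).

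Klk7, the chymotrypsin-like protease first found in the stratum corneum, went the other way. At 24 h HCM it was at 37.8, 55.5 and 33.3 CPM in WT and at 4.43, 2.72 and 4.51 CPM in PKP4-KO, a fold change of -3.45 ± 0.33 on the log2 scale (adjusted p = 8.47e-10). Every PKP4-KO library lay far under every WT library there. At 24 h LCM it fell by 2.08 ± 0.31 (adjusted p = 4.52e-06) and at 72 h HCM by 1.44 ± 0.29 (adjusted p = 0.00018), where WT had 338, 318 and 486 CPM and PKP4-KO 172, 135 and 114 CPM. At 72 h LCM the groups overlapped and the difference was -0.02 ± 0.29 (adjusted p = 0.963).

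Klk14, a trypsin-like protease with high activity in the stratum corneum, was lower in PKP4-KO at 24 h. It was at 5.02, 4.84 and 3.85 CPM in WT and at 0.282, 0.452 and 0.375 CPM in PKP4-KO at 24 h LCM, and at 14.7, 12.1 and 12.5 CPM against 1.12, 1.26 and 1.40 CPM at 24 h HCM. Both differences passed the test, with -3.58 ± 0.31 (adjusted p = 3.1e-10) and -3.39 ± 0.27 (adjusted p = 2.25e-11) on the log2 scale. At 72 h the libraries overlapped in both media, with -0.16 ± 0.23 in LCM and -0.09 ± 0.22 in HCM (adjusted p = 0.592 and 0.762). Without TMM factors the value at 72 h HCM was -0.84 and passed the test (adjusted p = 0.00678).

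Klk8 (neuropsin), which cleaves adhesion and signalling proteins in skin and brain, was higher in PKP4-KO in 3 of 4 conditions. At 24 h LCM it was at 16.7, 26.5 and 19.2 CPM in WT and 149, 81.6 and 82.9 CPM in PKP4-KO (2.33 ± 0.31, adjusted p = 5.58e-07). At 72 h LCM the values were 32.5, 17.6 and 24.2 CPM against 254, 211 and 137 CPM (3.02 ± 0.32, adjusted p = 8.31e-09). The groups were fully apart in both, and also at 24 h HCM, where the log2 difference was 1.24 ± 0.30 (adjusted p = 0.00116). At 72 h HCM, where WT had risen to 314, 309 and 487 CPM, PKP4-KO at 557, 529 and 477 CPM did not pass the test (0.50 ± 0.29, adjusted p = 0.157). The value was -0.23 without TMM factors (adjusted p = 0.324).

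Klk13 and Klk11, both trypsin-like, rose in PKP4-KO at 72 h in both media. Klk13 was at 31.8, 32.9 and 50.7 CPM in WT and 310, 298 and 237 CPM in PKP4-KO at 72 h HCM (2.88 ± 0.28, adjusted p = 1.53e-09) and rose 3.82-fold at 72 h LCM (1.93 ± 0.27, adjusted p = 1.19e-06). Klk11 was at 4.31, 4.29 and 6.36 CPM in WT and 29.6, 26.2 and 17.8 CPM in PKP4-KO at 72 h HCM (2.31 ± 0.54, adjusted p = 0.000811) and rose 7.69-fold at 72 h LCM (2.94 ± 0.60, adjusted p = 0.000209). None of these groups overlapped. At 24 h neither gene was called, though in HCM DESeq2 called 8 of the 10 members and edgeR 7. Klk13 differed by 0.49 ± 0.28 in LCM and, without overlap of the libraries, by -0.58 ± 0.27 in HCM (adjusted p = 0.175 and 0.0816). The latter passed the test without TMM factors (-0.49, adjusted p = 0.0456). Klk11 had 1, 0 and 2 counts in WT and 2, 0 and 2 in PKP4-KO at 24 h LCM, which is at or under the floor of 3 counts in all 6 libraries. At 24 h HCM it was at 0.361, 1.80 and 0.306 CPM in WT and 0.606, 0 and 0.148 CPM in PKP4-KO, a fitted difference of -1.58 ± 0.74 (adjusted p = 0.087) that passed the test without WT replicate 1 (adjusted p = 0.0486), WT replicate 3 (0.0387) or PKP4-KO replicate 1 (0.00505). With 1 library left out in turn, the difference ranged from -3.65 to -0.38, with adjusted p up to 0.727.

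Klk6 (neurosin), also trypsin-like, changed direction with the culture condition. At 24 h HCM it was at 3.25, 3.52 and 2.85 CPM in WT and 0.792, 0.753 and 0.443 CPM in PKP4-KO (-2.21 ± 0.53, adjusted p = 0.00104). At 72 h LCM it was at 0.752, 0.871 and 0.136 CPM in WT and 6.71, 5.62 and 1.05 CPM in PKP4-KO (2.88 ± 0.52, adjusted p = 5.71e-05). Replicate 3 of each group at 72 h LCM was well under its partners. At 24 h LCM the difference was -1.26 ± 0.64 (adjusted p = 0.117, and 0.0444 without WT replicate 2 and 0.0432 without TMM factors), and at 72 h HCM it was 0.20 ± 0.40 (adjusted p = 0.688), with -0.53 without TMM factors. Klk10, a kallikrein whose own protease activity is unclear, fell at 24 h HCM from 1160, 1210 and 1180 CPM in WT to 308, 297 and 285 CPM in PKP4-KO (-2.0 ± 0.16, adjusted p = 1.83e-11) and at 24 h LCM by 0.86 ± 0.15 (adjusted p = 4.49e-05). Its replicates were tight and the groups fully apart at 24 h. At 72 h the differences of -0.18 ± 0.15 in LCM and -0.27 ± 0.15 in HCM did not pass (adjusted p = 0.323 and 0.139), whereas without TMM factors both did, at -0.58 and -1.0.

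Spink5 and St14, the inhibitor and the activator, were lower in PKP4-KO in all 4 conditions. St14 was at 105, 123 and 128 CPM in WT and 71.2, 70.0 and 78.5 CPM in PKP4-KO at 24 h LCM, at 194, 197 and 236 CPM against 72.8, 69.5 and 64.7 CPM at 24 h HCM, at 78.3, 81.2 and 78.8 CPM against 44.5, 62.0 and 51.9 CPM at 72 h LCM, and at 146, 168 and 178 CPM against 105, 86.2 and 99.8 CPM at 72 h HCM. No library of either kind overlapped in any condition. It fell by 0.70 ± 0.11, 1.60 ± 0.12, 0.59 ± 0.11 and 0.75 ± 0.11 on the log2 scale, with adjusted p from 3.55e-12 to 0.00012. Spink5 varied more between replicates. At 24 h HCM it was at 662, 320 and 457 CPM in WT and 148, 125 and 59.7 CPM in PKP4-KO (-2.11 ± 0.43, adjusted p = 0.000196), and at 72 h LCM at 140, 183 and 149 CPM against 67.1, 27.4 and 48.4 CPM (-1.72 ± 0.43, adjusted p = 0.00168). These groups did not overlap. At 24 h LCM it fell by 1.41 ± 0.42 (adjusted p = 0.00876), a call lost without WT replicate 1 (adjusted p = 0.0615) or PKP4-KO replicate 1 (0.0516). At 72 h HCM WT had 350, 380 and 139 CPM and PKP4-KO 160, 156 and 115 CPM. The low WT replicate 3 put the groups in overlap, and the change of -1.01 ± 0.42 (adjusted p = 0.044) was lost without any 1 of the 5 other libraries (adjusted p from 0.066 to 0.179) and with DESeq2 (0.0543).

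**Figure D2:**
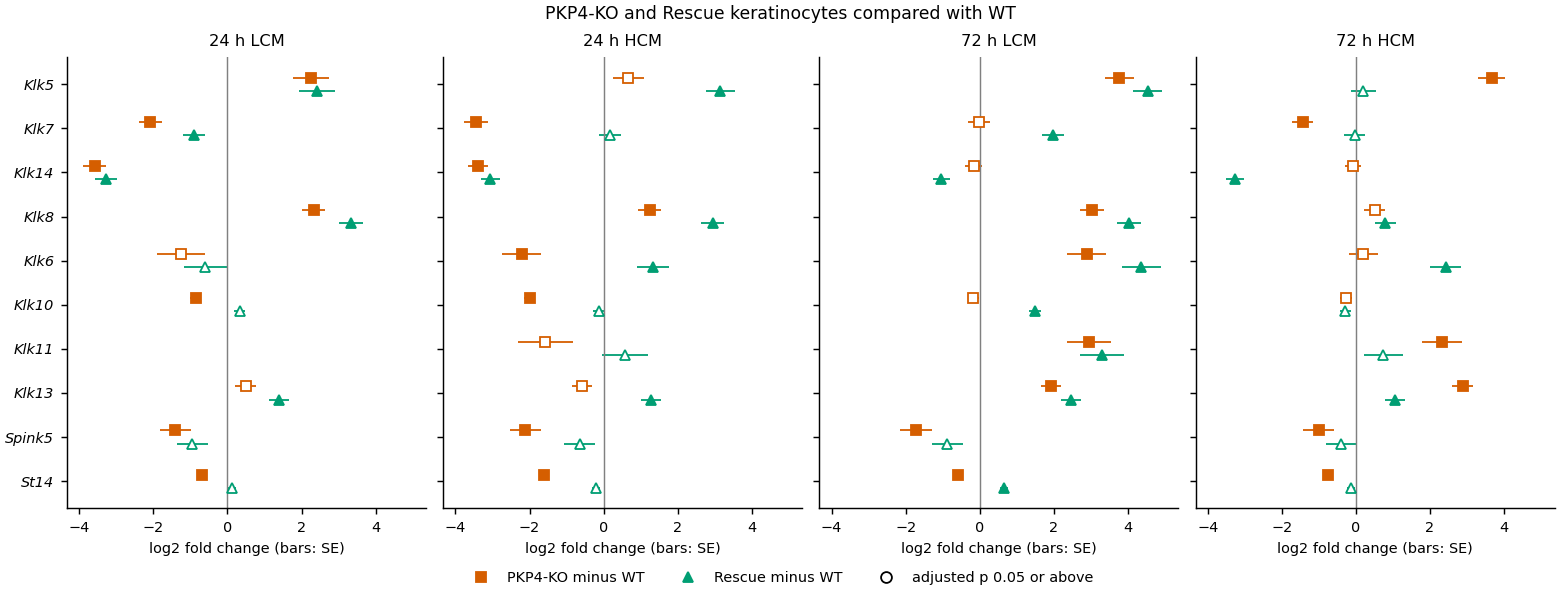
Log2 fold change of each gene in PKP4-KO (squares) and Rescue (triangles) against WT in the 4 culture conditions, with bars for the SE and filled symbols for an adjusted p below 0.05 (Klk11 at 24 h LCM, with WT at the floor of 3 counts, is not drawn). Klk5 lies to the right of WT in both at 24 h LCM and 72 h LCM, St14 lies to the left in PKP4-KO in all 4 panels, and Klk14 is left of WT in Rescue in all 4.

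Genes that sit side by side in the cluster differed in their change, and Klk8 and Klk7 moved in opposite directions at 24 h. At 72 h they were not both called in either medium. Counted from the start of Klk14, Klk8 begins at 107 kb and Klk7, the next gene, at 121 kb, and at 24 h LCM Klk8 rose by 2.33 ± 0.31 on the log2 scale while Klk7 fell by 2.08 ± 0.31. Klk13 begins at 22 kb. At 72 h HCM Klk13 rose by 2.88 ± 0.28 and Klk14 was at -0.09 ± 0.22. Klk11 begins at 84.2 kb and Klk10 at 90.6 kb, and at 72 h LCM the fold changes were 2.94 ± 0.60 for Klk11 and -0.18 ± 0.15 for Klk10. The kallikreins of the cluster outside the followed set, Klk12 and Klk9, were lower in PKP4-KO at 24 h HCM (-4.87 ± 0.43 and -2.38 ± 0.35, adjusted p = 2.5e-10 and 1.9e-06) and not called at 72 h LCM (-0.13 ± 0.36 and 0.17 ± 0.29). The lowest and the highest fold change in the cluster were those of Klk14 (-3.58) and Klk8 (2.33) at 24 h LCM, Klk12 (-4.87) and Klk8 (1.24) at 24 h HCM, Klk10 (-0.18) and Klk5 (3.77) at 72 h LCM, and Klk7 (-1.44) and Klk5 (3.66) at 72 h HCM.

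**Figure D3:**
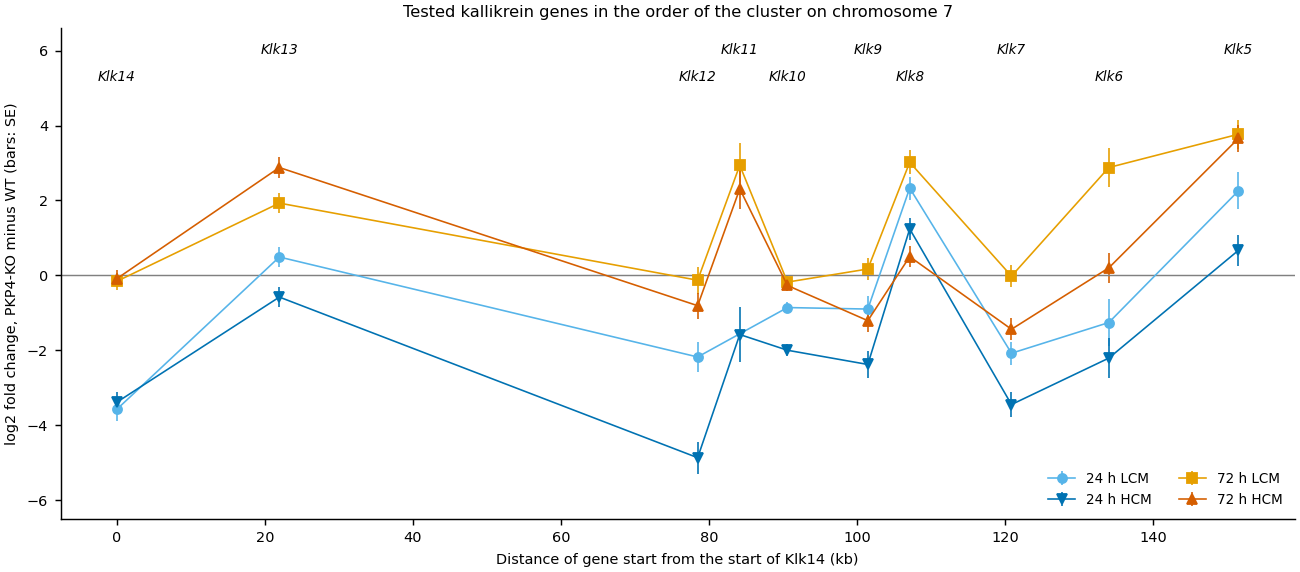
Log2 fold change of PKP4-KO against WT (with SE) for the 10 tested kallikreins of the cluster, placed by the distance of each gene's start from that of Klk14 in kb, with 1 line per culture condition (Klk11 at 24 h LCM is not drawn). Klk13, Klk11 and Klk8 form peaks between lower genes in most lines, Klk5, at the end, lies above Klk6 in each, and the lines of 24 h lie under those of 72 h for all genes but Klk8 and Klk9.

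The balance among these genes can be read within a library as the ratio of counts per kb of exon, which needs no scaling between libraries. These ratios were chosen after the levels had been seen. In WT, Klk5 was far below Klk7, with a log2 ratio of -5.21 ± 0.29 (SD, n = 3) in LCM and -4.73 ± 0.79 in HCM at 24 h, and -4.49 ± 0.26 in LCM and -4.57 ± 0.23 in HCM at 72 h. In PKP4-KO it was -0.91 ± 0.66, -0.54 ± 0.55, -0.64 ± 0.39 and 0.55 ± 0.19, so that at 72 h HCM there was more Klk5 than Klk7 per kb. The libraries of the 2 kinds were fully apart in all 4 conditions, with differences of 4.30, 4.19, 3.85 and 5.12. In an exact permutation test, each p was 0.1, the smallest that 3 libraries against 3 can give, and 0.145 after adjustment over 48 ratio tests. Rescue lay between, at -1.89 ± 0.35, -1.65 ± 0.10 and -1.91 ± 0.05 in the first 3 conditions, and overlapped WT at 72 h HCM (-4.34 ± 0.31).

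Klk5 was also higher relative to its inhibitor in PKP4-KO. This ratio combines the changes of Klk5 and Spink5 given above and is not independent of them. The log2 ratio of Klk5 to Spink5 at 72 h HCM was -2.74 ± 1.16 in WT and 1.85 ± 0.14 in PKP4-KO, and that at 72 h LCM -5.39 ± 0.60 and 0.15 ± 1.04. At 24 h the ratio was -6.41 ± 0.92 and -2.79 ± 1.01 in LCM and -6.87 ± 1.32 and -3.97 ± 1.29 in HCM, again with no overlap (exact permutation p = 0.1 and adjusted p = 0.145 in each of the 4). The ratio of Klk7 to Spink5 did not separate the 2 kinds except at 72 h LCM, where it was -0.90 ± 0.57 in WT and 0.79 ± 0.85 in PKP4-KO (exact permutation p = 0.1). Klk5 to Klk14 was higher in PKP4-KO in all 4 conditions, by 5.89, 4.13, 3.95 and 3.79, and higher in Rescue than in WT by 5.76, 6.38, 5.6 and 3.47, each with an exact permutation p of 0.1.

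**Figure D4:**
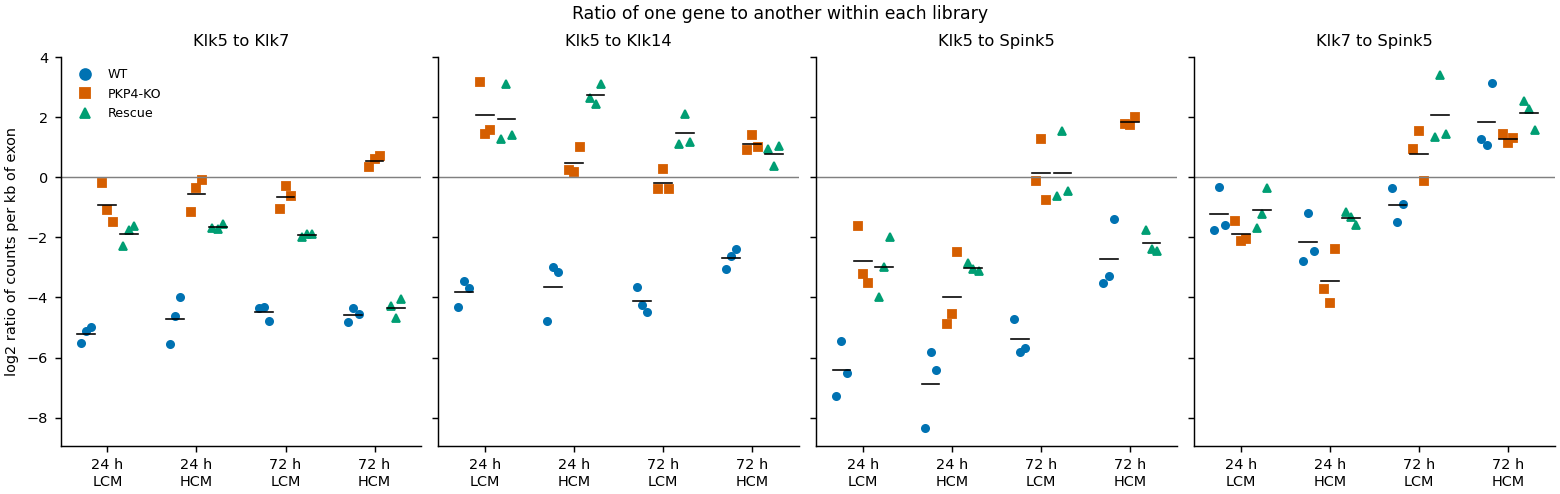
Log2 ratio of the counts per kb of exon of one gene to another inside each library, with 1 point per library and a black line at the mean of 3. In the panel of Klk5 to Klk7, the WT points lie between -5.55 and -3.99 and the PKP4-KO points between -1.47 and 0.70, and the Rescue points drop to overlap those of WT at 72 h HCM.

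The second question was how these genes differed between Rescue and PKP4-KO cells, which virus and selection also set apart. At 24 h, most of the 10 genes were higher in Rescue: 6 were called higher than in PKP4-KO at 24 h LCM and 9 at 24 h HCM, where 33.7% and 40.8% of all genes were called in either direction and 18.2% and 21.7% higher. At 72 h LCM 5 were called higher and 1 lower (41.5% of all genes, 23.3% higher and 18.3% lower), and at 72 h HCM 3 higher and 4 lower (66.7%, with 37.2% higher and 29.5% lower). Without TMM factors the calls were 7 higher and 0 lower at 72 h LCM and 6 higher and 3 lower at 72 h HCM. The medians over the 10 members were 0.86, 1.86, 0.92 and 0.14 on the log2 scale in these 4 conditions, and those over all genes were 0.00, -0.02, 0.03 and 0.20. At 72 h HCM the median over all genes was 1.37 without TMM factors, the largest such shift of the comparisons between the 3 kinds of cells. In that fit Klk6 rose by 3.39, Klk7 by 2.58 and St14 by 1.79 in Rescue at 72 h HCM.

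Klk7 rose in Rescue against PKP4-KO in all 4 conditions. It was at 48.1, 57.0 and 37.4 CPM in Rescue at 24 h HCM, far above the 4.43, 2.72 and 4.51 CPM of PKP4-KO (3.62 ± 0.33, adjusted p = 4.07e-10), and rose by 1.16 ± 0.31, 1.99 ± 0.30 and 1.40 ± 0.29 at 24 h LCM, 72 h LCM and 72 h HCM. Against WT it fell by 0.91 ± 0.30 at 24 h LCM (adjusted p = 0.024, lost without WT replicate 2, Rescue replicate 1 or Rescue replicate 3, with adjusted p up to 0.128), was not called in HCM at either time (0.17 ± 0.29 and -0.04 ± 0.29) and rose by 1.97 ± 0.30 at 72 h LCM (adjusted p = 6.3e-06). St14 rose in Rescue against PKP4-KO in all 4 conditions as well, by 0.81 ± 0.11, 1.39 ± 0.12, 1.25 ± 0.11 and 0.62 ± 0.11 (adjusted p from 6.67e-11 to 3.42e-05), and against WT it was called at 72 h LCM alone (0.66 ± 0.11, adjusted p = 3.61e-05), with 0.12, -0.21 and -0.13 in the other 3. Klk10 rose by 1.19 ± 0.15, 1.86 ± 0.16 and 1.68 ± 0.15 in the first 3 conditions and was at -0.02 ± 0.15 at 72 h HCM, which became 1.16 without TMM factors. Spink5 was called at 24 h HCM, at 271, 358 and 285 CPM in Rescue (1.46 ± 0.42, adjusted p = 0.00632), and at 72 h HCM its libraries did not overlap but missed the threshold (0.60 ± 0.42, adjusted p = 0.203), which it passed without TMM factors (1.78, adjusted p = 0.00289) and with only the groups compared in the fit (0.52, adjusted p = 0.0222).

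Klk5, Klk11, Klk13 and Klk14 were lower in Rescue than in PKP4-KO at 72 h HCM. Klk5 was at 13.8, 10.3 and 14.9 CPM in Rescue, against 154, 146 and 130 CPM in PKP4-KO and 8.44, 11 and 14.7 CPM in WT. It fell by 3.46 ± 0.35 against PKP4-KO (adjusted p = 3.17e-09) and differed from WT by 0.20 ± 0.33 (adjusted p = 0.646). Klk13, at 81.7, 71.0 and 86.1 CPM, fell by 1.82 ± 0.26 (adjusted p = 1.3e-06) and remained 1.05 ± 0.26 above WT (adjusted p = 0.0025). Klk11, at 9.08, 7.32 and 8.37 CPM, fell by 1.57 ± 0.52 (adjusted p = 0.00961), but by 0.39 without TMM factors (adjusted p = 0.472). Without them Klk5 fell by 2.28, Klk13 by 0.64 and Klk14 by 2.0, all 3 still called. At 24 h HCM, by contrast, Klk5, Klk13 and Klk11 were higher than in PKP4-KO, Klk5 by 2.48 ± 0.37 (10.6, 12.2 and 9.09 CPM in Rescue), Klk13 by 1.85 ± 0.27 and Klk11 by 2.16 ± 0.70 (adjusted p = 2.63e-06, 2.19e-06 and 0.0145). The last was lost with only the groups compared in the fit (adjusted p = 0.0844) and without PKP4-KO replicate 2, PKP4-KO replicate 3 or Rescue replicate 2 (adjusted p up to 0.0852). At 24 h LCM, Klk11 was at least 3.98-fold higher than in PKP4-KO, whose libraries were at the floor of 3 counts, and Klk13 rose by 0.90 ± 0.28 (adjusted p = 0.0114), calls lost without PKP4-KO replicate 2 (adjusted p = 0.0606 and 0.0624) and, for Klk13, without PKP4-KO replicate 3 (0.0858) or with only the groups compared (0.091). At 72 h LCM Klk5, Klk11 and Klk13 were not called, at 0.76 ± 0.33, 0.36 ± 0.52 and 0.54 ± 0.26. Klk5 there passed the test without PKP4-KO replicate 2 (adjusted p = 0.0399) or Rescue replicate 3 (0.0368), and without TMM factors Klk5 and Klk13 did, at 1.11 and 0.87.

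Klk14 stayed low in Rescue. It was at 0.501, 0.248 and 0.720 CPM at 24 h LCM, 1.62, 2.12 and 0.994 CPM at 24 h HCM, 10, 7.44 and 7.56 CPM at 72 h LCM and 6.86, 7.48 and 6.95 CPM at 72 h HCM. Every one of these libraries was under every WT library of its condition, where WT ranged up to 72.8 CPM. Against WT the fold changes were -3.27 ± 0.30, -3.06 ± 0.26, -1.04 ± 0.23 and -3.26 ± 0.24 on the log2 scale (adjusted p from 6.02e-11 to 0.000724). Against PKP4-KO it was not called at 24 h (0.31 ± 0.39 and 0.33 ± 0.28), fell by 0.89 ± 0.23 at 72 h LCM (adjusted p = 0.00268, but 0.0585 without PKP4-KO replicate 1, 0.061 with only the groups compared in the fit and 0.131 without TMM factors) and by 3.17 ± 0.24 at 72 h HCM (adjusted p = 1.65e-11).

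Klk6 and Klk8 had their highest group mean in Rescue at 72 h HCM. Klk6 was at 202, 158 and 207 CPM in Rescue at 72 h HCM, against 31.2, 28.9 and 46.1 CPM in WT and 41.5, 43.5 and 37.2 CPM in PKP4-KO. It rose there by 2.21 ± 0.41 against PKP4-KO (adjusted p = 4.27e-05) and by 2.42 ± 0.42 against WT (adjusted p = 4.89e-05), with no overlap. In HCM at 24 h it was at 8.14, 9.78 and 6.26 CPM, all above the PKP4-KO libraries (3.54 ± 0.51, adjusted p = 1.81e-06), and at 72 h LCM it rose by 1.48 ± 0.43 against PKP4-KO (adjusted p = 0.00691, but 0.125 with only the groups compared in the fit). In LCM at 24 h it was at 0.865, 0.538 and 0.524 CPM and not called against either (-0.60 ± 0.58 against WT and 0.66 ± 0.67 against PKP4-KO). Klk8 was at 172, 193 and 268 CPM in Rescue at 24 h LCM and 274, 280 and 245 CPM at 24 h HCM, above both other kinds. Against WT it rose by 3.34 ± 0.32, 2.95 ± 0.31, 4.02 ± 0.33 and 0.79 ± 0.29 in the 4 conditions (adjusted p from 1.27e-10 to 0.0357). The smallest, at 72 h HCM, was lost without WT replicate 1 or 2 or Rescue replicate 1 or 3 (adjusted p up to 0.114). Against PKP4-KO it rose by 1.01 ± 0.29, 1.72 ± 0.30 and 1.01 ± 0.29 in the first 3 conditions. The first of these was lost without PKP4-KO replicate 2 or Rescue replicate 3, and the last without PKP4-KO replicate 3 or Rescue replicate 2 (adjusted p up to 0.0826). Both were lost with only the groups compared in the fit (0.058 and 0.0879). At 72 h HCM Klk8 differed from PKP4-KO by 0.30 ± 0.29 (adjusted p = 0.375), which became 1.47 and passed the test without TMM factors.

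Compared with WT, 6 of the 10 members were called in Rescue after 24 h in LCM (24.8% of all genes), 5 after 24 h in HCM (23.2%), 9 after 72 h in LCM (32.4%) and 4 after 72 h in HCM (36.2%). In the third of these, 8 of the 9 were higher (17.9% of all genes). Klk5 rose there to 22.9, 33.9 and 17.9 CPM (4.53 ± 0.39 against WT, adjusted p = 3.94e-10), and Klk6 to 9.60, 17.1 and 10.2 CPM (4.36 ± 0.52, adjusted p = 1.12e-07). Klk11, Klk13 and Klk10 rose there by 3.30 ± 0.60, 2.47 ± 0.27 and 1.49 ± 0.15, Klk10 to 1340, 1940 and 1510 CPM. Only Klk14 fell, and Spink5, at 127, 41.5 and 87.0 CPM, was not called (-0.88 ± 0.42, adjusted p = 0.11, and 0.0378 without Rescue replicate 1). At 24 h Klk5 was above WT by 2.41 ± 0.48 in LCM and 3.15 ± 0.39 in HCM, Klk13 by 1.39 ± 0.28 and 1.27 ± 0.27, and Klk11 was at least 4.08-fold higher in LCM. Klk6 at 24 h HCM rose by 1.33 ± 0.44 against WT (adjusted p = 0.0266), a call lost without any 1 of 5 of the 6 libraries, Rescue replicate 3 being the exception (adjusted p from 0.0504 to 0.101). The comparisons with WT and with PKP4-KO share the Rescue libraries.

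A further question was how the genes answered to calcium, the signal for differentiation. In WT, HCM raised 9 of the 10 at 24 h and 9 at 72 h. Of all genes, 14.2% and 21.4% were called in either direction, and 7.69% and 10.6% were called higher in HCM against 6.48% and 10.8% lower. At 72 h in WT, Klk6 went from 0.752, 0.871 and 0.136 CPM in LCM to 31.2, 28.9 and 46.1 CPM in HCM (5.88 ± 0.53, adjusted p = 2.09e-09), the largest calcium response of any member. Klk8 rose by 3.90 ± 0.33, Klk7 by 3.49 ± 0.32, Klk5 by 3.39 ± 0.39, Klk11 by 2.88 ± 0.60, Klk10 by 2.07 ± 0.16, Klk14 by 1.97 ± 0.23, Klk13 by 1.38 ± 0.27 and St14 by 1.04 ± 0.11 (adjusted p from 7.79e-11 to 0.000694). Spink5 was not called at 72 h (0.88 ± 0.42, adjusted p = 0.14), where the low HCM replicate 3 overlapped the LCM libraries. At 24 h in WT it was Klk8 that was not called (0.73 ± 0.30, adjusted p = 0.108). Klk10 rose from 292, 358 and 306 CPM to 1160, 1210 and 1180 CPM at 24 h (1.89 ± 0.16, adjusted p = 6.78e-10), Spink5 by 2.16 ± 0.43 and St14 by 0.81 ± 0.11 (adjusted p = 0.00065 and 5.55e-06), and Klk11 was at least 5.03-fold higher. Of the 9 calls at 24 h, Klk11 was lost without HCM replicate 2 (adjusted p = 0.138, with a bound of 2.04-fold), Klk6 without LCM replicate 2 or 3 or HCM replicate 2 (up to 0.129) and Klk5 without LCM replicate 1 or 3 or HCM replicate 2 or 3 (up to 0.0808). With only the groups compared in the fit, Klk6 and Klk5 were lost (0.0853 and 0.0765), and Klk6 was lost without TMM factors too (0.0509).

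In PKP4-KO, 2 of the 10 were called at 24 h and all 10 at 72 h, and the responses at the 2 times were not tested against each other. At 24 h Klk10 (0.75 ± 0.15, adjusted p = 0.00394) and Klk14 (1.71 ± 0.34, adjusted p = 0.00355) were called, with 2.83% of all genes called, and Klk7 (-0.15 ± 0.32), Klk8 (-0.37 ± 0.29), Klk5 (0.18 ± 0.39) and St14 (-0.09 ± 0.11) were not (adjusted p from 0.658 to 0.93). Both calls were lost with only the groups compared in the fit (adjusted p = 0.142 and 0.194). Klk13 and Spink5, at 0.73 ± 0.28 and 1.46 ± 0.42, had no overlap between the media but missed the threshold (adjusted p = 0.184 and 0.0583, and 0.0319 without LCM replicate 1 and 0.0267 without HCM replicate 3). Klk13 passed without TMM factors (adjusted p = 0.038), and Spink5 with DESeq2, without the filter and with a minimum of 10 counts (0.0103, 0.0351 and 0.0353). At 72 h all 10 were called higher (32.6% of all genes in either direction, 12.9% higher), from 0.88 ± 0.11 for St14 to 3.28 ± 0.35 for Klk5. Without TMM factors, St14 at 0.21 and Spink5 at 0.87 lost the call there (adjusted p = 0.276 and 0.156). In Rescue, HCM raised 8 of 10 at 24 h (12% of all genes, 6% higher), from 0.49 ± 0.11 for St14 to 3.62 ± 0.51 for Klk6, with Klk8 and Klk11 not called. St14 lost that call without TMM factors (0.46, adjusted p = 0.0615), and Klk14 with only the groups compared in the fit (adjusted p = 0.0655). At 72 h 3 were higher and 1 lower (24.9%, with 13% higher and 12% lower): Klk6 (3.95 ± 0.45), Klk7 (1.48 ± 0.29) and Spink5 (1.35 ± 0.42) rose and Klk5 fell by 0.93 ± 0.33 (adjusted p = 0.0355). The call of Klk5 was lost without LCM replicate 2 or any 1 HCM replicate (adjusted p up to 0.206), that of Spink5 without LCM replicate 2 or 3 or HCM replicate 3 (up to 0.119), and both without TMM factors (0.0531 and 0.0538) and with only the groups compared in the fit (0.051 and 0.0505). Klk8 and Klk10 were gained without LCM replicate 2 (adjusted p = 0.0176 and 0.0485) and without TMM factors (0.87 and 0.46, adjusted p = 0.00281 and 0.016), where 4 members were called higher and 0 lower.

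**Figure D5:**
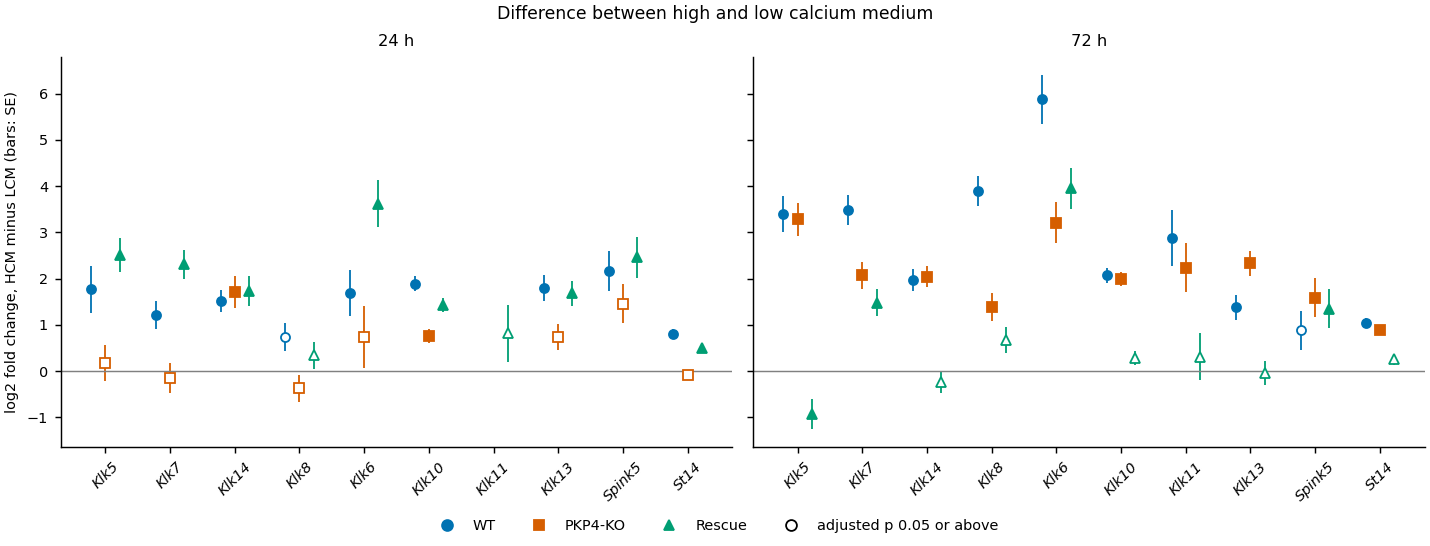
Log2 fold change of HCM against LCM for each gene at 24 h and 72 h in WT (circles), PKP4-KO (squares) and Rescue (triangles), with bars for the SE and filled symbols for an adjusted p below 0.05 (Klk11 at 24 h in WT and PKP4-KO, at the floor of 3 counts in LCM, is not drawn). At 24 h the PKP4-KO points of most genes lie nearest to 0, and at 72 h the Rescue points lie under the WT points for all genes but Spink5.

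Whether these calcium responses differed between the kinds of cells was tested as an interaction. At 24 h the response of PKP4-KO was smaller than that of WT for Klk10 (by 1.14 on the log2 scale) and St14 (by 0.90). These were 2 of 10 members, with 4.02% of all genes called, 2.79% as lower. For the other 8 the difference was not called, although 6 of 10 had an unadjusted p below 0.05. Without TMM factors the value of St14 was -0.61 and lost the call (adjusted p = 0.163). At 72 h it was smaller for Klk8, Klk6 and Klk7, 3 of 10 (5.74% of all genes, 3.88% lower). Klk7 was lost there without any 1 of 6 libraries and Klk6 without WT LCM replicate 3 or PKP4-KO LCM replicate 1 (1 to 3 called), and both with only the groups compared in the fit. The response of Rescue exceeded that of PKP4-KO at 24 h for Klk7 and Klk5, 2 of 10 (1.41%, 0.992% higher), and fell short of it at 72 h for 6 of 10 (31.5%, 13.4% lower). DESeq2 called 5 members in this comparison at 24 h. The call of Klk5 at 24 h was lost without any 1 of 5 libraries and that of Klk11 at 72 h without any 1 of 8. Without TMM factors 4 members were called as smaller and 1, Klk6, as larger at 72 h. Against WT, none of the 10 differed in Rescue at 24 h (0.0662% of all genes called by edgeR). There, 4 members had an unadjusted p below 0.05 and DESeq2 also called 0. At 72 h 9 of 10 had a smaller response in Rescue than in WT (14.6%, 7.77% lower), Spink5 being the exception (0.47 ± 0.58, adjusted p = 0.591). Without TMM factors Klk6, Klk11 and St14 lost the call (adjusted p = 0.118, 0.0588 and 0.262). Leaving out 1 library lost Klk6 in 7 cases, Klk11 in 5 and Klk13 in 1. The largest of these was that of Klk5, with HCM raising it by 3.39 ± 0.39 in WT and lowering it by 0.93 ± 0.33 in Rescue, an interaction of -4.33 ± 0.50 (adjusted p = 6.3e-07).

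With time in culture most kallikreins rose, with exceptions in 2 of the 6 comparisons: Klk6 (-0.73 ± 0.58) and Klk8 (0.26 ± 0.30) in WT in LCM and Klk5 (0.29 ± 0.33) in Rescue in HCM were not called. From 24 h to 72 h, 7 of 10 members were called in WT in LCM (9.96% of all genes), 9 in WT in HCM (17.8%), 9 in PKP4-KO in LCM (26.1%), 9 in PKP4-KO in HCM (55.8%), 8 in Rescue in LCM (9.81%) and 7 in Rescue in HCM (24.3%). The shares of all genes called higher were, in the same order, 5.29%, 9.16%, 12.4%, 24.3%, 6.84% and 13.6%. The medians of the 10 were 0.87, 2.52, 3.05, 5.07, 3.16 and 1.27. In PKP4-KO in HCM, Klk11 rose by 6.55 ± 0.70 (5.88 to 8.61 with 1 library left out, from 13, 0 and 2 counts at 24 h), Klk5 by 6.23 ± 0.41, Klk6 by 5.88 ± 0.53, Klk14 by 5.67 ± 0.29, Klk7 by 5.18 ± 0.35, Klk13 by 4.96 ± 0.31, Klk10 by 2.74 ± 0.16 and Klk8 by 2.68 ± 0.31 (adjusted p from 3.02e-15 to 4.23e-08). Without TMM factors these were 5.47, 5.17, 4.80, 4.6, 4.12, 3.88, 1.68 and 1.63, and the median over all genes was -1.16. Spink5 was not called with time in any of the 6 comparisons, at -0.73 ± 0.41 to 0.62 ± 0.42. The lowest adjusted p of the alternative fits in Rescue in HCM was 0.0301 for Spink5 and 0.0176 for St14, both lower at 72 h. St14 was not called there in the main fit (-0.28 ± 0.11, adjusted p = 0.0752). St14 fell with time in WT (by 0.58 ± 0.11 in LCM and 0.35 ± 0.11 in HCM) and in PKP4-KO in LCM (by 0.47 ± 0.11), and rose in PKP4-KO in HCM by 0.49 ± 0.11, which was -0.57 without TMM factors. The fall in WT in HCM was lost without HCM replicate 3 at 24 h or replicate 1 or 2 at 72 h (adjusted p up to 0.189). In WT in LCM, Klk13 and Klk14 rose by 1.91 ± 0.28 and 1.92 ± 0.24. In the same comparison Klk5 (1.61 ± 0.50) lost the call without any 1 replicate of 24 h or replicate 1 or 2 of 72 h, Klk7 (0.91 ± 0.29) without replicate 1 or 3 of either time, and Klk11 (at least 4.14-fold) without replicate 1 or 2 of 24 h or replicate 1 of 72 h (adjusted p up to 0.229). The calls of Klk8 in LCM, 0.94 ± 0.29 in PKP4-KO and 0.93 ± 0.29 in Rescue, were lost without 3 of the 6 libraries in turn: 24 h replicate 2 or 3 or 72 h replicate 1 in PKP4-KO, and 24 h replicate 1 or 2 or 72 h replicate 2 in Rescue (adjusted p up to 0.107 and 0.321). With only the groups compared in the fit, both of these were lost as well, as were Klk11 in WT in HCM and St14 in WT in HCM and in PKP4-KO in LCM (adjusted p from 0.0786 to 0.265). Without TMM factors Klk7 in WT in LCM was lost (adjusted p = 0.1).

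The wider set of genes that act with kallikreins was described from 4 lists, whose counts stand beside the shares of all genes called higher and lower given with the first comparison. Of 19 other kallikreins, 2 were tested, Klk9 and Klk12, and both fell in PKP4-KO at 24 h in both media. At 72 h Klk9 fell in HCM from 34.2 ± 6.26 CPM in WT to 14.8 ± 2.72 CPM in PKP4-KO (-1.21 ± 0.29, adjusted p = 0.00104), and Klk12 was not called (-0.81 ± 0.35, adjusted p = 0.0562). Of 16 other epidermal proteases, 14 were tested, with 1 higher and 7 lower at 24 h LCM, 1 and 10 at 24 h HCM, 5 and 2 at 72 h LCM, and 5 and 6 at 72 h HCM. With genes at the floor taken at their bound, their medians were -1.12, -2.02, -0.03 and -0.12. Prss8 (prostasin), which works together with matriptase, was at 3.99 ± 0.738 CPM in WT and 0.420 ± 0.373 CPM in PKP4-KO at 24 h HCM (-3.21 ± 0.48, adjusted p = 2.5e-06) and fell also at 24 h LCM and 72 h HCM. Ctsl, the lysosomal protease cathepsin L, fell in all 4 conditions, by 2.37 ± 0.14 at 72 h HCM, from 495 ± 52.0 CPM to 95.6 ± 2.67 CPM. Tmprss11e, a transmembrane serine protease of epithelia, fell in all 4 too, by 2.69 ± 0.44 to 4.86 ± 0.51. Ctsc, the activator of granule serine proteases cathepsin C, was at the floor of 3 counts in WT and at 3.36 ± 0.648 to 4.80 ± 1.17 CPM in PKP4-KO, at least 20.6-fold higher in each condition.

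Inhibitors were divided. Of 21 other protease inhibitors, 18 were tested, with 2 higher and 6 lower at 24 h LCM, 6 and 11 at 24 h HCM, 9 and 5 at 72 h LCM, and 8 and 4 at 72 h HCM in PKP4-KO. The medians were -0.15 without 2 genes at the floor, -1.14, 1.44 and 0.63. Spint1 (HAI-1), the inhibitor of matriptase, fell in all 4 conditions together with St14, by 1.88 ± 0.15, 3.21 ± 0.15, 1.25 ± 0.14 and 0.83 ± 0.14, and was at 86.5 ± 7.48 CPM in WT and 9.35 ± 1.07 CPM in PKP4-KO at 24 h HCM. Wfdc2 fell in all 4 as well, by 3.03 ± 0.59 to 4.22 ± 0.56. In contrast, Serpinb3a, a serpin of squamous epithelia, rose from 1.18 ± 0.688 CPM to 730 ± 81.7 CPM at 72 h HCM (9.34 ± 0.54, adjusted p = 5.58e-14) and was called higher in all 4, as was Serpinb12, at 5.74 ± 0.478 and 316 ± 25.9 CPM at 72 h HCM. In Rescue at 72 h HCM, Serpinb3a was at 53.3 ± 15.6 CPM and Serpinb12 at 4.74 ± 0.642 CPM. Reads of Serpinb3a may be shared with its near-identical copies in the Serpinb3 group, and its level is uncertain to that extent.

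Substrates and receptors fell more often than they rose. Of 17, 13 were tested, with 7 lower at 24 h LCM, 10 lower at 24 h HCM, 3 higher and 6 lower at 72 h LCM, and 1 higher and 6 lower at 72 h HCM. The medians were -0.98, -1.99, -0.54 and, without 1 gene at the floor, -0.60. Cdsn, the gene of corneodesmosin, was at 640 ± 50.4 CPM in WT and 16.5 ± 2.23 CPM in PKP4-KO at 24 h HCM (-5.28 ± 0.24, adjusted p = 1.97e-16), fell also at 24 h LCM and 72 h HCM, and was at 472 ± 123 CPM in Rescue at 24 h HCM. Dsg1a and Dsg1b, the genes of desmoglein 1, fell at 24 h in both media and at 72 h LCM. Dsg1a was at 117 ± 52.8 CPM in WT and 11.6 ± 1.60 CPM in PKP4-KO at 24 h HCM. These copies are similar enough that their reads may be split. Plaur, the urokinase receptor, fell in all 4 conditions, by 0.54 ± 0.22 to 2.32 ± 0.23, and Flg, the gene of filaggrin, which is also among the differentiation markers, was at the upper end of this list at 72 h HCM, at 0.539 ± 0.372 CPM in WT and 7.03 ± 0.816 CPM in PKP4-KO.

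Closest matches over the 12 group means on a log2 scale were sought among the tested protein-coding genes. Klk11 and Klk13 were each other's closest match there (Pearson r = 0.976). Other closest matches were S100a9 for Klk5 (0.973), Atp6v1c2 for Klk6 (0.972), Lce3b for Klk7 (0.981), Cln3 for Klk8 (0.960), Hopx for Klk10 (0.986), Dusp22 for Klk14 (0.949) and Macc1 for Spink5 (0.953). The mean of the 8 kallikreins was matched best by Wfdc5 (0.989), Sbsn (0.985), Gml (0.977), Glrx (0.976) and Ttc22 (0.976). Among the members, Klk5 and Klk13 (0.958) and Klk7 and Klk10 (0.945) were also close, while Klk8 and Spink5 (-0.0287) and Klk5 and St14 (0.0171) showed almost no common pattern. The 12 points of each correlation come from the same libraries and share their scaling.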

How the data were processed

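Poly(A) RNA of keratinocytes was sequenced strand-specifically as 36 libraries. The authors aligned the reads to mm39, to which they had added the GFP-PKP4 sequence, with HISAT2 2.1.0, dropped secondary alignments (SAMtools 1.10) and obtained gene counts with featureCounts 2.0.0 and the Ensembl GRCm39 annotation. The deposited table holds these raw counts (13602728 to 22467187 per library) and a gene length.

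From the counts, edgeR 4.0.16 in R 4.3.3 (TMM factors, filterByExpr on 12 groups, quasi-likelihood test with 24 residual degrees of freedom, Benjamini-Hochberg adjustment over 15114 genes, threshold 0.05) was fitted once to all 36 libraries, with every comparison as a contrast of group means. A calcium response is HCM against LCM, and its difference between kinds of cells is an interaction term. CPM are TMM-scaled, and levels between genes are compared per kb of the deposited gene length. A group whose libraries all have at most 3 counts is at the floor, and its fold is a lower bound against 3 counts in each library. Ratios of genes within a library were compared with exact two-sided permutation tests. On simulated counts for PKP4-KO against WT at 72 h HCM (14668 genes tested), 56 of 100 genes changed by log2 1 and 92 of 100 changed by log2 2 were called, with 12 false calls. Alternatives were DESeq2 1.42.0, no TMM factors, no filter, a minimum of 10 counts in each library, a fit to only the groups compared, a replicate block, and leaving out each library in turn. Promoters, positions and motif matches were read from the GRCm39 genome with the GENCODE annotation, the build of the files.

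The members and the lists were chosen with earlier results of these data known. The members are all named. Genes of the lists are named where they were called in PKP4-KO against WT in 1 direction in 3 or more of the 4 conditions, or lie at an end of the list's range at 72 h HCM, and of those only examples are given. Libraries of a group are called biological replicates in the series' design text, without saying whether they came from separate pups, so the p-values measure the spread between these libraries. The libraries of a group differed by more than counting noise (chi-square per gene 7.03 to 266.01). The closest match of St14 in pattern is not reported here.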

Additional observations from a re-analysis of the deposited data

Results flagged for a closer look

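The results given here are members whose response to calcium differed between 2 kinds of cells by the interaction test of edgeR. Values are differences of the log2 response with the SE and the adjusted p-value.

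Between PKP4-KO and WT, the response at 24 h was smaller in PKP4-KO for Klk10 (-1.14 ± 0.21, adjusted p = 0.00135) and St14 (-0.90 ± 0.16, adjusted p = 0.00076, but -0.61 with adjusted p = 0.163 without TMM factors). At 72 h it was smaller for Klk8 (-2.52 ± 0.42, adjusted p = 0.000245), Klk6 (-2.67 ± 0.66, adjusted p = 0.0122) and Klk7 (-1.42 ± 0.41, adjusted p = 0.0345). The call of Klk7 was lost without any 1 of 6 libraries (adjusted p from 0.078 to 0.178), and that of Klk6 without WT 72 h LCM replicate 3 (0.0508) or PKP4-KO 72 h LCM replicate 1 (0.0605). Both were lost with only the groups compared in the fit (0.165 for Klk7 and 0.106 for Klk6).

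Between Rescue and PKP4-KO, the response at 24 h was larger in Rescue for Klk7 (2.45 ± 0.44, adjusted p = 0.00176) and Klk5 (2.33 ± 0.53, adjusted p = 0.0189, lost without any 1 of 5 libraries with adjusted p from 0.0598 to 0.102, and with only the groups compared in the fit, 0.128). At 72 h it was smaller in Rescue for Klk5 (-4.22 ± 0.47, adjusted p = 1.82e-07), Klk13 (-2.36 ± 0.37), Klk14 (-2.28 ± 0.33), Klk11 (-1.93 ± 0.73, adjusted p = 0.0453, lost without any 1 of 8 libraries, with the replicate block, adjusted p = 0.0534, and without TMM factors, -1.07 with adjusted p = 0.201), Klk10 (-1.70 ± 0.21) and St14 (-0.63 ± 0.16, adjusted p = 0.00405). Without TMM factors the median of this difference over all genes was 0.93, and the value of St14 was 0.18.

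Between Rescue and WT at 72 h, the response was smaller in Rescue for 9 members. These were Klk5 (-4.33 ± 0.50, adjusted p = 6.3e-07), Klk8 (-3.23 ± 0.42), Klk11 (-2.57 ± 0.78), Klk14 (-2.21 ± 0.33), Klk7 (-2.0 ± 0.41), Klk6 (-1.94 ± 0.64), Klk10 (-1.78 ± 0.21), Klk13 (-1.42 ± 0.37) and St14 (-0.80 ± 0.16), with adjusted p from 6.3e-07 to 0.0413. The calls of Klk6 and Klk11 were lost without any 1 of 7 and 5 libraries, and that of Klk13 without Rescue 72 h LCM replicate 2 (adjusted p = 0.0502). Without TMM factors the calls of Klk11 (-2.05, adjusted p = 0.0588), Klk6 (-1.4, adjusted p = 0.118) and St14 (-0.34, adjusted p = 0.262) were lost.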

How the results depend on the processing

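Most member values kept their direction and side of the threshold: 289 of 300 with DESeq2, 298 of 300 without the filter, 255 of 300 without TMM factors (13 gained and 14 lost the call) and 298 of 300 with the replicate block (2 lost the call). With only the groups compared 264 of 291 did, 4 gained and 21 lost the call, and with 1 library left out 2005 of 2160 did, 13 gained and 100 lost it. Values that were called in neither fit changed sign in 15 cases without TMM factors (among them Klk8 and Klk6 for PKP4-KO against WT, 72 h HCM), 42 with 1 library left out, 2 with DESeq2 and 2 with only the groups compared. Without TMM factors 3 values changed sign and were called in at least 1 of the fits: Klk10 in Rescue against PKP4-KO at 72 h HCM (1.16), St14 in 72 h against 24 h in PKP4-KO HCM (-0.57) and St14 in the calcium response of Rescue minus PKP4-KO at 72 h (0.18). By construction, a minimum of 10 counts in every library drops Klk5, Klk6, Klk11 and Klk14.

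With that minimum the number of members called was 4 in PKP4-KO against WT at 72 h LCM, 3 in Rescue against PKP4-KO at 72 h HCM, 3, 2, 5 and 2 in Rescue against WT, 5, 5, 6 and 5 for calcium in WT at 24 h and 72 h, PKP4-KO at 72 h and Rescue at 24 h, 4 to 5 for time in the 6 comparisons (4, 5, 5, 5, 4 and 4), and 3 and 5 for the calcium responses of Rescue at 72 h against PKP4-KO and WT. With only the groups compared it was 3 in Rescue against PKP4-KO at 24 h LCM and at 72 h LCM, 0 for calcium in PKP4-KO at 24 h, 2 for calcium in Rescue at 72 h, and 1 each for the calcium responses of PKP4-KO minus WT at 72 h and Rescue minus PKP4-KO at 24 h. The response of PKP4-KO minus WT at 24 h had 1 without TMM factors, and that of Rescue minus PKP4-KO at 24 h had 5 with DESeq2. The cause was not tested.

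Leaving out 1 library gave 3 to 6 members in Rescue against PKP4-KO at 24 h LCM (3 without PKP4-KO replicate 2), 2 to 4 for calcium in Rescue at 72 h (2 without HCM replicate 3), 4 to 6 for time in WT LCM (4 without replicate 1 of either time), 1 to 3 for the calcium response of PKP4-KO minus WT at 72 h (1 without WT LCM replicate 3 or PKP4-KO LCM replicate 1) and 1 to 3 for Rescue minus PKP4-KO at 24 h (1 without replicate 1 of PKP4-KO LCM, PKP4-KO HCM or Rescue LCM, or replicate 2 of PKP4-KO HCM or Rescue HCM).

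Equal replicate numbers did not pair the libraries: 65 of 198 pairs correlated above 0.1 (range -0.692 to 0.772), and 13 of 36 libraries correlated best with their own number. The replicate block left all 30 counts of called members within 1.5 times. Depth limits Klk11 at 24 h, with at most 2 counts per library in WT and PKP4-KO in LCM.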
